A study of Homo sapiens with 8 samples.

Results

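Coding N6-methyladenosine (m6A) peaks in short exons are the m6A peaks that the deposited table places in the coding sequence (CDS) of an exon shorter than 400 nt. Applying both conditions to each peak's own segment and exon-length entry gave 1788 peaks, of 15367 coding peaks and 37501 peaks in all. They lay in 1013 gene models with 1012 gene symbols. Peaks of a gene model whose transcript positions were at most 100 nt apart, in any treatment, were joined into 1 site. This gave 1293 short-exon sites among 17764 sites in all.

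The samples were cultures labelled HepG2, described as a human hepatocarcinoma line, with 1 m6A immunoprecipitation (IP) library and 1 input library for each of 4 treatments. The first group received ultraviolet light (UV) at 0.04 J/cm2, with 4 h of recovery. Heat shock was 30 min at 43 °C, and the wording of the protocol leaves unclear whether the recovery also applied there. Hepatocyte growth factor (HGF, also called scatter factor, the ligand of the MET receptor) was given overnight at 10 ng/ml, and interferon gamma (IFNg) overnight at 200 ng/ml. No untreated culture was analysed here. Every treatment was represented by 1 pair of libraries, so no difference between treatments has a replicate check and no p-value is given.

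The modification m6A is placed on adenosines of nascent mRNA by a methyltransferase complex built around METTL3 and METTL14, which prefers a short consensus with a central GAC or AAC. In mRNA it is known to concentrate around stop codons and inside long internal exons, while short coding exons flanked by splice junctions carry little of it. It is removed by FTO and ALKBH5 and read by YTH-domain proteins, which influence the decay, splicing and translation of the message.

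The cell label was checked on 10 hepatocyte markers, because secreted liver proteins define HepG2 in culture. Their expression percentiles, ranks among all gene models of a treatment, ranged from 18.4 to 76.1 with a median of 34.1. ALB was at 45.5 (UV), 57.6 (heat shock), 24.9 (HGF) and 22.3 (IFNg), and AFP at 45.5, 32.8, 20.4 and 22.4 in the same order. The lowest tied rank of each treatment was a floor, and of the 10 markers 8 (UV), 5 (heat shock), 3 (HGF) and 2 (IFNg) sat on it. The defining markers therefore go against the label, and the samples are called cultures labelled HepG2 throughout. Blood-cell markers ranged from 18.4 to 60.9 over 5 genes, and fibroblast and endothelial markers from 28.8 to 83.5 over 5 genes. The part of cell identity in any result below was not tested.

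The sequences of a few sites show what the peaks look like at the level of the RNA. Each is 61 nt long, written 5′ to 3′ in the sense of the mRNA and centred on the position of the strongest peak that could be placed on a GENCODE 29 transcript (GRCh38). Capitals mark the core motif, which is GGACA, or with another last letter GGACC, or GGACT in its remaining form, searched on the RNA strand only. The first 6 are sites with a peak in all 4 treatments and a core motif, the next 2 are sites in all 4 treatments without one in the stretch shown, and the last 5 are sites listed in 1 treatment.
PZP exon 15: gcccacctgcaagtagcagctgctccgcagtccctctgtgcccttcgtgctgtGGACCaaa
OGDH exon 2: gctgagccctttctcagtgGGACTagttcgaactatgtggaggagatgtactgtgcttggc
DHX32 exon 3: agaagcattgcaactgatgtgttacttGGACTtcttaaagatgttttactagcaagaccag
ACBD3 exon 7: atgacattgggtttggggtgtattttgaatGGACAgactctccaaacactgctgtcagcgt
LRP6 exon 6: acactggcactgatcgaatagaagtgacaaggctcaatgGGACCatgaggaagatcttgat
TAPBP exon 4: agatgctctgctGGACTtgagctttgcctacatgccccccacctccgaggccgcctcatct
UTX exon 16: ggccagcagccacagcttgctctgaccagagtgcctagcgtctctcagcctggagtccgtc
PTPRK exon 3: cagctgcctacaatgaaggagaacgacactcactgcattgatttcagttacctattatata
CPSF2 exon 9, UV alone: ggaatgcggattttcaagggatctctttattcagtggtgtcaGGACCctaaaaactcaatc
EIF3J exon 2, heat shock alone: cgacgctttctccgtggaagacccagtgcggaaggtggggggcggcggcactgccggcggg
DSG2 exon 7, IFNg alone: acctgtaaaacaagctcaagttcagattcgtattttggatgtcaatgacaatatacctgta
HSPH1 exon 14, IFNg alone: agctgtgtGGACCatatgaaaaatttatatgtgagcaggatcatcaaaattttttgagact
MAK10 exon 8, IFNg alone: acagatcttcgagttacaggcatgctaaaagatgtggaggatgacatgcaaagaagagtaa

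All 13 stretches lie wholly in coding sequence of the transcript used. In the GRCh38 genome the PZP stretch is at chr12:9181027-9181087 on the minus strand, OGDH at chr7:44624479-44624539 on the plus strand, DHX32 at chr10:125859824-125859884 on the minus strand and ACBD3 at chr1:226152376-226152436 on the minus strand. LRP6 is at chr12:12181094-12181154 and TAPBP at chr6:33305275-33305335, both on the minus strand. UTX, now called KDM6A, is at chrX:45063512-45063572 on the plus strand and PTPRK at chr6:128322194-128322254 on the minus strand. CPSF2 at chr14:92143153-92143213, EIF3J at chr15:44537328-44537388 and DSG2 at chr18:31524510-31524570 are on the plus strand. The HSPH1 and MAK10 stretches each cross an exon junction, so each is split over 2 exons in the genome. HSPH1 is on the minus strand at chr13:31140184-31140221 and chr13:31139085-31139107, and MAK10, now called NAA35, on the plus strand at chr9:85975015-85975033 and chr9:85975114-85975155.

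The 4 treatments differed in how many peaks they had and in how large a part of them lay in short coding exons. UV had 13307 peaks, heat shock 9803, HGF 9111 and IFNg 5280. Of the coding peaks, 11.2% lay in short exons after UV (567 of 5050, exact Clopper-Pearson 95% interval 10.4 to 12.1), and 8.77% after heat shock (343 of 3913, 7.90 to 9.70). The share was 10.9% after HGF (428 of 3933, 9.93 to 11.9) and 18.2% after IFNg (450 of 2471, 16.7 to 19.8). IFNg thus had the smallest peak list and the highest share of short-exon peaks, and the interval of its share did not overlap the other 3. These intervals, and all others below, cover counting error only, and peaks of 1 gene are not independent of each other. Among peaks with a score at or above the median of their treatment, the order changed, and the shares were 6.93% (UV), 5.62% (heat shock), 4.52% (HGF) and 6.32% (IFNg). The excess of IFNg was thus in peaks of low score.

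Short-exon peaks scored lower than coding peaks of longer exons in every treatment. Each peak carries an enrichment score assigned by the authors, and neither its formula nor its log base is given in the sources used here. It starts at about 2, and it was ranked within each treatment, so that percentile 100 is the highest-scoring peak of that treatment. Median scores in short exons were 3.34 (UV), 2.96 (heat shock), 2.55 (HGF) and 2.43 (IFNg), against 4.10, 3.71, 3.35 and 3.08 in exons of 400 nt or more. As percentiles, the short-exon medians were 31.0, 27.2, 23.4 and 23.5, against 50.6, 49.5, 50.5 and 52.8 in longer exons. Of the short-exon peaks, 11.6% (UV), 14.3% (heat shock), 7.71% (HGF) and 3.56% (IFNg) were above score percentile 75. The corresponding shares in longer exons lay between 25.4% and 26.5%.

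The host genes of short-exon peaks were highly ranked in expression. The median expression percentile of the gene model was 89.8 (UV), 91.9 (heat shock), 89.4 (HGF) and 90.5 (IFNg). For coding peaks of longer exons it was between 77.7 and 81.7. Because the table holds ranks in place of read counts, sequencing depth is unknown, and the part of depth and expression in these differences was not tested.

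Exon length differed between treatments within the short-exon peaks. The median exon length was 257 nt (UV), 258 nt (heat shock), 197.5 nt (HGF) and 150 nt (IFNg). Exons shorter than 200 nt held 31.0% (UV), 32.1% (heat shock), 51.2% (HGF) and 75.1% (IFNg) of the short-exon peaks. The transcripts themselves were alike in their exons. In the transcripts on which the peaks of each treatment could be placed, exons shorter than 200 nt held 67.1% (UV), 65.7% (heat shock), 67.2% (HGF) and 73.3% (IFNg) of the coding bases of all short exons. Among the placed peaks themselves the shares were 29.7%, 30.4%, 48.3% and 71.0%. UV and heat-shock peaks thus lay in the longer members of the short exons, whereas IFNg peaks were spread over them nearly as the coding bases were.

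**Figure D1:**
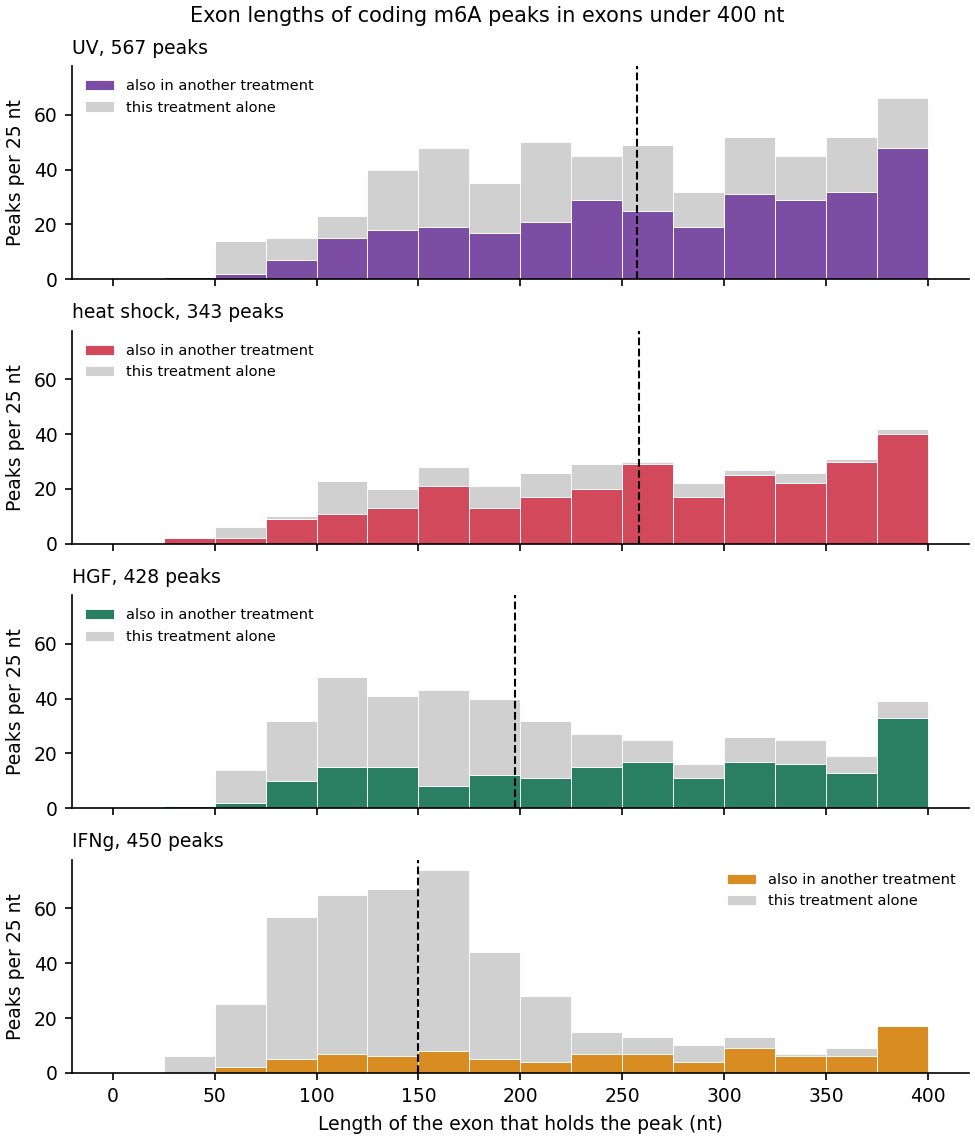
Number of short-exon coding peaks (vertical axis) by length of the exon in 25-nt bins (horizontal axis), 1 panel per treatment; coloured bars are peaks with another treatment's peak in the same site, grey bars are peaks of that treatment alone, and the dashed line is the median. The IFNg peaks gather below 200 nt, mostly in grey, with a median of 150 nt, while the UV and heat-shock counts are highest in the bin next to 400 nt.

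The share of short-exon peaks in first exons also differed between treatments, and its part in the difference of exon length was not tested. The median exon length was 270.5 nt (UV) and 177 nt (IFNg) in exons 2 and 3, and 236.5 nt and 150 nt from exon 10 on. Exon 1 held 55 UV peaks (9.70%), 34 heat-shock peaks (9.91%), 15 HGF peaks (3.505%) and 2 IFNg peaks (0.444%, 0.0539 to 1.60). In coding peaks of longer exons, exon 1 held 14.1%, 13.0%, 10.9% and 11.7%, so the treatments differed less there. Exons 2 and 3 held 24.0% (UV), 26.2% (heat shock), 26.2% (HGF) and 17.3% (IFNg). Exon 10 or later held between 33.9% and 40.2% in the 4 treatments, and the highest exon number, 303, was in TTN.

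Across the bound, pooled over treatments, 75.4% of peaks in exons of 300 to under 400 nt and 86.3% in exons of 400 to under 600 nt shared a site with another treatment. The share in sites of all 4 treatments was 19.6% and 35.5%, and the median score percentile 42.3 and 52.6. The values thus went on rising past the bound. The peaks just inside it were those in 399-nt exons. They included DIAPH3 exon 1 after UV with a score of 5.44, and 2 peaks of TAPBP exon 4 after UV with scores of 4.29 and 4.11. Just outside, SKIV2L2 exon 1 (400 nt) had scores of 6.17 after UV and 5.26 after heat shock, and NR2F6 exon 1 (400 nt) had 2.01 after UV.

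Most short-exon sites were listed in a single treatment. Of the 1293 sites, 913 had peaks in 1 treatment (70.6%, 68.0 to 73.1), 261 in 2, 78 in 3 and 41 in all 4 (3.17%, 2.28 to 4.28). Among the 6102 sites whose coding peaks were all in longer exons, 34.4% were listed in 1 treatment and 19.9% in all 4. Over all 17764 sites, the shares were 40.3% and 16.5%. Sharing in all 4 treatments was thus less frequent in short exons than in either comparison set, and no interval overlapped. The gap was still present among gene models at expression percentile 75 or more in every treatment, with 2.65% of short-exon and 22.9% of long-exon sites in all 4. Without the IFNg libraries, 11.2% of short-exon sites and 34.6% of long-exon sites were listed in all the other 3, so the gap was present there too. Asking for fewer lists raises such a share by construction, and no other treatment was left out. The part of the IFNg libraries in the value of 3.17% was therefore not tested.

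The largest class of short-exon sites was that listed after IFNg alone. It held 356 sites, or 27.5% of short-exon sites, against 209 or 3.42% of long-exon sites. UV alone had 253 sites, HGF alone 232 and heat shock alone 72. Sites of UV and heat shock together numbered 163, or 12.6%, against 13.2% of long-exon sites and 15.1% of all sites. Those of UV, heat shock and HGF numbered 65, or 5.03%, against 13.75% and 12.9%. Among short-exon sites, UV and heat shock thus shared more with each other than with the other treatments. The pair was no more frequent there than in long-exon sites or in all sites. Of the IFNg-alone sites, 324 of 356 (91.0%) lay in gene models at expression percentile 75 or more in all 4 treatments, and of the heat-shock-alone sites 90.3%. The share was 75% for HGF alone and 71.2% for UV alone, and 1020 of all 1293 short-exon sites lay in such models.

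Pairwise matching within 100 nt showed the same pattern from the side of single peaks. Of the heat-shock peaks in short exons, 73.2% had a UV peak within 100 nt, near the 82.0% in longer exons. Of the IFNg peaks in short exons, 17.8% had an HGF peak, 12.0% a UV peak and 10.9% a heat-shock peak within that distance. In longer exons the shares for IFNg were 78.9%, 72.0% and 70.7%. The IFNg peak list therefore overlapped the others well in long exons and little in short ones.

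Sharing rose with exon length inside the short-exon set. After IFNg, 7.95% of peaks in exons under 100 nt were shared with another treatment, 10.4% between 100 and 200 nt, 33.3% between 200 and 300 nt and 82.6% between 300 and 400 nt. The next bin, from 400 nt to under 600 nt, was at 93.5%. Heat-shock peaks were at 72.2% of 18 under 100 nt, 63.0% of 92 between 100 and 200 nt, 77.6% between 200 and 300 nt and 92.9% between 300 and 400 nt, so only the thinly filled first bin broke the rise. UV went from 33.3% in the first of these bins to 65.1% in the last, and HGF from 27.7% to 72.5%.

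**Figure D2:**
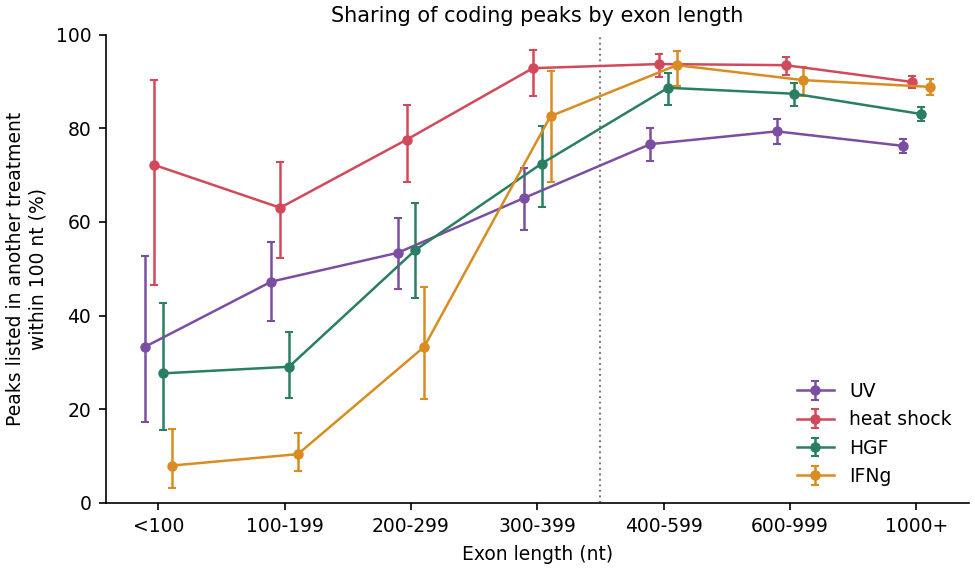
Percentage of coding peaks that share a site with a peak of another treatment (vertical axis) by exon length class (horizontal axis) for the 4 treatments, with exact 95% intervals; the dotted line is the 400-nt bound. The IFNg line goes from 7.95% under 100 nt to 82.6% between 300 and 400 nt and joins the other lines above the bound.

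Score and sharing moved together, and at like scores the gap to longer exons was wide at low scores and narrower at high ones. At score percentiles up to 25, 14.8% of 237 IFNg peaks in short exons were shared, against 81.9% in longer exons. Between percentiles 50 and 75 the IFNg values were 35.7% of 56 and 91.4%. For UV the same ranges gave 39.3% against 55.0% and 71.8% against 81.6%. For HGF they gave 36.8% against 69.8% and 56.9% against 90.7%. Heat shock had 65.2% against 81.0% up to percentile 25, but 96.4% against 94.9% between percentiles 50 and 75. Above percentile 75, the short-exon and long-exon shares were 93.9% of 33 and 94.3% for HGF, and 95.9% of 49 and 98.04% for heat shock. They were 89.4% of 66 and 96.6% for UV, and 62.5% of 16 and 95.6% for IFNg. The gap was thus small in the highest scores of HGF and heat shock.

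Sequence around the peaks was read where a GENCODE 29 transcript of the same gene had the listed exon number and exon length. This placed 1315 of the 1788 peaks (73.5%) and 942 of the 1293 sites. Of the 1315, 878 (66.8%) lay in gene models whose genomic span differed by under 100 nt from that of the transcript. Where the transcript starts elsewhere than the gene model, the sequence read is shifted from the peak. Distances between a peak and a motif thus hold for the transcript used. Within 50 nt of the listed position, the core motif was found at 60.8% of 418 UV peaks (55.9 to 65.5), 60.1% of 253 heat-shock peaks (53.8 to 66.2) and 51.4% of 327 HGF peaks (45.8 to 56.9). After IFNg it was found at 30.3% of 317 peaks (25.3 to 35.7). As background, every 101-nt window centred on a coding base of the short exons of the same transcripts was searched, and the share was 35.1% (UV), 34.8% (heat shock), 31.7% (HGF) and 28.3% (IFNg). The short-exon peaks of UV, heat shock and HGF thus held the core motif more often than their background, while the interval of IFNg included its background. A match describes the letters and not a methylated base.

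In longer exons the treatments did not part in this way. There the share was 54.6% (UV), 54.3% (heat shock), 50.2% (HGF) and 53.6% (IFNg), with backgrounds between 32.1% and 32.9%. IFNg was the lowest of the 4 in short exons under all 8 alternatives that can move these values. Base composition moved with it: the mean GC content of the windows was 54.5% (UV), 54.6% (heat shock), 49.5% (HGF) and 43.3% (IFNg), against 51.6%, 51.7%, 49.1% and 46.9% in the background. Its part in the motif shares was not tested.

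**Figure D3:**
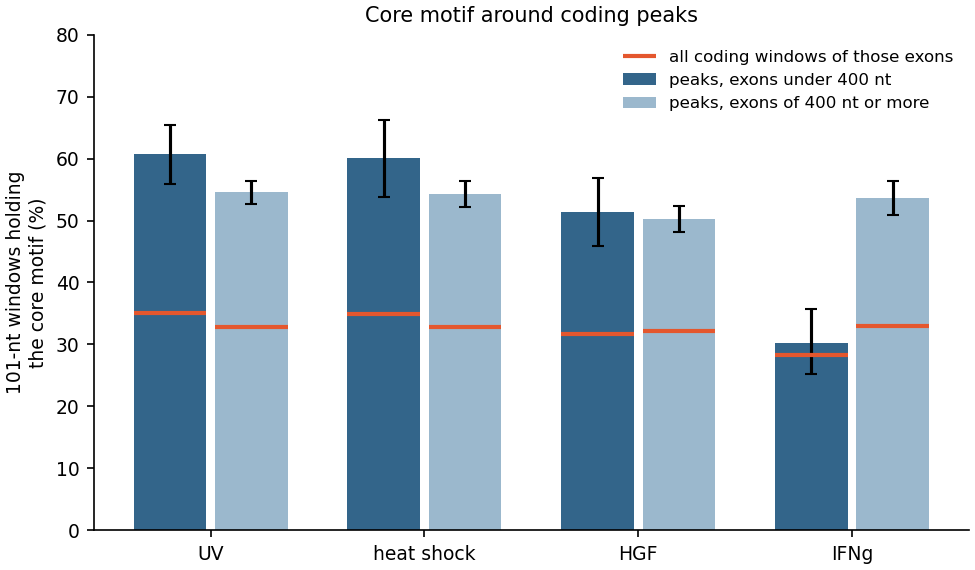
Percentage of 101-nt windows around coding peaks that hold the core motif (vertical axis), by treatment and exon class (bars, with exact 95% intervals), and the same share in all coding windows of those exons (orange lines). Of the 8 bars, only IFNg in short exons, at 30.3%, sits at its background of 28.3%.

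The motif shares also differed by sharing. IFNg peaks in sites of that treatment alone held the core motif at 24.5% of 241 placed peaks (19.2 to 30.4). The 36 placed IFNg peaks in sites of all 4 treatments held it at 61.1% (43.5 to 76.9). For UV the corresponding shares were 58.2% of 184 and 65.7% of 35, and for heat shock 64.3% of 56 and 63.9% of 36. HGF-alone peaks held it at 45.9% of 170, and HGF peaks in sites of all 4 treatments at 60% of 35. UV-alone, heat-shock-alone and HGF-alone peaks were thus above their backgrounds, and IFNg-alone peaks were not. In longer exons too, IFNg-alone peaks were near the background of 32.9%, at 34.4% of 122, while UV-alone peaks were at 51.0% of 606, heat-shock-alone peaks at 44.0% of 182 and HGF-alone peaks at 40.1% of 344. Single forms differed in their order. The form GGACT was within 50 nt of 30.4% of UV peaks, 30.4% of heat-shock peaks, 22.9% of HGF peaks and 10.7% of IFNg peaks. GGACC was near 21.8%, 21.3%, 12.5% and 7.89%, in the same order of treatments. GGACA was near 23.4%, 23.3%, 26.9% and 16.1%, so HGF was the highest for that form and IFNg the lowest for all 3. The other forms of the wider consensus went both ways. AAACA (8.85% of UV and 21.8% of IFNg peaks) and GAACA (11.7% and 22.7%) were more frequent near IFNg peaks. GAACC (10.5% and 5.68%) and GAACT (18.4% and 15.1%) were less frequent there. With all 12 forms of that consensus, which begins with A or G at the first and second place and ends with A, C or T after AC, 92.8% of UV and 83.0% of IFNg peaks had a match, against backgrounds of 79.4% and 80.9%.

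Starts of the core motif were more frequent near the peaks of UV, heat shock and HGF than away from them. In the 4 bins of 20 nt that lie within 40 nt of the listed position, they numbered 8.61 to 11.0 (UV), 7.71 to 10.5 (heat shock) and 6.42 to 8.87 (HGF) per 1000 peaks and nt. In the 10 bins from 100 nt to 200 nt away on either side, they numbered 3.71 to 5.74, 3.56 to 6.13 and 3.06 to 4.74. For IFNg the ranges overlapped, with 3.47 to 5.05 in the near bins and 2.05 to 3.785 in the far ones. The highest bin began 20 nt after the listed position in UV, heat shock and HGF, and 20 nt before it in IFNg.

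**Figure D4:**
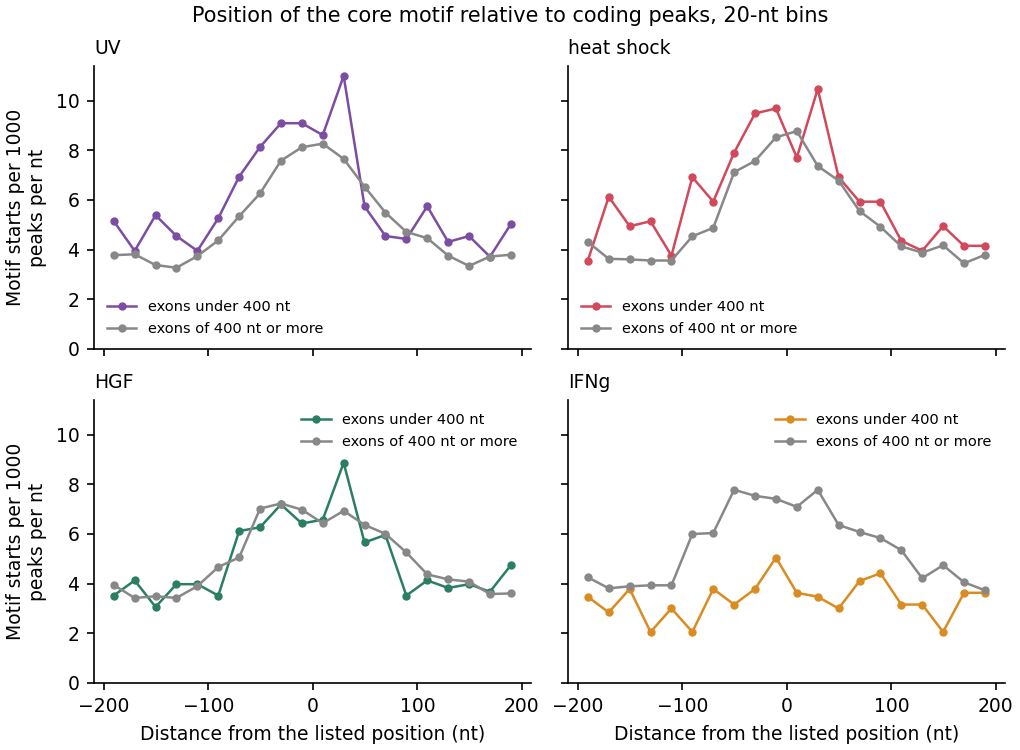
Starts of the core motif per 1000 peaks and nt (vertical axis) by distance from the listed peak position in 20-nt bins (horizontal axis), for placed peaks in short (coloured) and longer (grey) exons, 1 panel per treatment. The coloured lines of UV and heat shock rise above 10 near the centre, while that of IFNg does not pass 5.05.

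Peaks lay away from exon junctions where they were shared. In internal exons, 32.1% of UV peaks were less than 50 nt from an exon end, against the 45.5% that an even spread over the same exons would give. The values were 35.1% against 46.1% for heat shock, 47.5% against 54.6% for HGF and 60.4% against 64.8% for IFNg. In sites of all 4 treatments, 16.7% of 138 peaks lay that near an end, against 36.8% for an even spread, and 79.7% lay in the central 50% of the exon. These 138 peaks come from at most 41 sites. Each treatment's peak of a site is counted, so they are not independent places. In sites of 1 treatment the values were 57.3% against 61%, with 55.6% in the central 50%. An even spread puts 50% there, so single-treatment peaks were placed nearly evenly along their exons.

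Sites of all 4 treatments with high scores in each of them were few, and they lay in genes of varied function. PZP, a secreted protease inhibitor of the alpha-2-macroglobulin family, had the highest lowest-of-4 score percentile. Its site in the 150-nt exon 15 had scores of 7.14 (UV), 5.95 (heat shock), 5.91 (HGF) and 4.57 (IFNg), at percentiles 97.4, 95.3, 96.2 and 91.0. The 4 positions in the transcript, 1794, 1794, 1794 and 1798, were within 4 nt of each other. In the sequence above, GGACC starts 23 nt after the listed position. PZP has close relatives, and reads shared with A2M could be split between them.

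UTX (KDM6A), a histone H3 lysine demethylase, had its site in exon 16 of 396 nt, with scores of 7.08, 5.47, 5.12 and 4.22 in the order UV, heat shock, HGF, IFNg. Its UV and heat-shock peaks were at positions 2044 and 2023 and its HGF and IFNg peaks at 2164 and 2135. The site thus joins neighbouring positions, and no core motif was within 50 nt of the UV peak. OGDH, a subunit of the 2-oxoglutarate dehydrogenase complex of the citric acid cycle, had scores of 5.38, 5.44, 6.92 and 6.24 in exon 2 (249 nt). HGF and IFNg gave the higher scores there, at percentiles 99.4 and 99.7 against 79.9 after UV.

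Among the other high sites, DHX32, a putative RNA helicase, had scores of 6.63, 4.44, 5.74 and 6.37 in exon 3 (373 nt), lowest after heat shock. The GGACT of its sequence starts 3 nt before the listed IFNg position. ACBD3, a Golgi adaptor protein, had 7.05, 5.61, 3.58 and 3.17 in exon 7 (285 nt), and GGACA starts at the listed UV position in the transcript used. The receptor tyrosine phosphatase PTPRK had 6.10, 6.04, 4.13 and 3.57 in exon 3 (272 nt). In ACBD3 and PTPRK the UV and heat-shock percentiles were 90.2 or higher and those of HGF and IFNg 72.3 or lower.

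The remaining 4 sites of the 10 were in TTN exon 303 (306 nt), KIAA0895 exon 5 (306 nt), DNAJC10 exon 3 (350 nt) and ATP2B1 exon 1 (389 nt). DNAJC10 encodes a disulfide reductase of the endoplasmic reticulum and ATP2B1 a calcium pump of the plasma membrane. The ATP2B1 scores were 7.39, 6.88, 5.56 and 3.17, and those of DNAJC10 7.49, 5.36, 4.98 and 3.17. KIAA0895 had 7.78 after UV, the highest score of any UV peak in a short exon, and 3.24 after IFNg. No core motif was within 50 nt of the strongest peak in KIAA0895, DNAJC10 or ATP2B1.

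**Figure D5:**
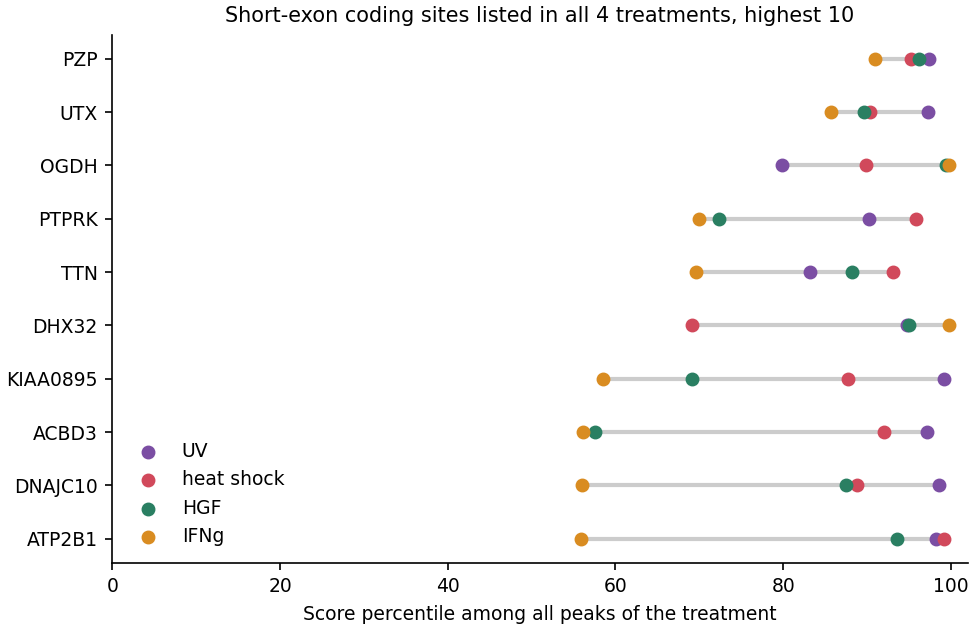
Score percentile among all peaks of the treatment (horizontal axis) for the 10 short-exon sites of all 4 treatments with the highest lowest-of-4 percentile (vertical axis), 1 coloured point per treatment and a grey line over their range. PZP stays between 91.0 and 97.4, while OGDH and DHX32 have their highest point after IFNg and the sites at the bottom their lowest.

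Score ranks at the 41 sites of all 4 treatments were compared among the 2925 sites of that class. Of all 2925, 3.93% (UV), 3.38% (heat shock), 3.18% (HGF) and 7.62% (IFNg) ranked 25 points or more above each of the other 3 treatments. The shares 25 points or more below each of the others were 3.08%, 2.91%, 3.69% and 7.9%. Of the 41 short-exon sites, 4, 3, 0 and 0 were that much higher and 2, 1, 3 and 7 that much lower, in the order UV, heat shock, HGF, IFNg. The median rank of the 41 was 52.2 (UV), 62.7 (heat shock), 48.2 (HGF) and 31.5 (IFNg). These counts are small, and the highest of them was that of the 7 sites ranked lower after IFNg.

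Single sites moved in opposite ways. PAN2, a subunit of a poly(A) nuclease, had scores of 4.91, 5.95, 5.49 and 2.67 in exon 2 (396 nt), and its rank after IFNg was 60.1 points below the median of the others. MSL1, a scaffold of a histone acetyltransferase complex, fell by 60.4 points there, with scores of 7.10, 4.83, 4.35 and 2.15. After HGF the largest losses were in SLIT2, a secreted axon guidance ligand, with a score of 2.69 against 6.62 after UV, and in BPTF, with 2.202. BPTF, the large subunit of the NURF chromatin remodeller, had 6.28 after heat shock, 52.5 points above the median of the others. BPTF thus stood near the top of its class after heat shock, at rank 94.6, and near the bottom after HGF, at rank 2.19.

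Gains were seen in other genes. The interferon-induced oligoadenylate synthetase OAS3 had 4.14, 4.89, 2.71 and 2.36 in exon 2 (283 nt), a gain of 54.1 points after heat shock. Its expression percentile was 95.6 after IFNg and between 68.3 and 75.4 in the other treatments, so its lowest score came with its highest expression rank. ARIH2, a ubiquitin ligase, gained 49.0 points after UV, with scores of 5.39, 2.48, 2.19 and 2.21. C5orf28 gained 46.6 points after HGF, with a score of 6.83 against 2.80 after IFNg. WISP2, a secreted matrix-associated protein, gained 36.5 points after HGF, at a score of 3.91 against 2.13 after UV. SYT12, a synaptotagmin, had a rank 46.3 points below the others after UV, at a score of 3.56. UAP1, which makes UDP-N-acetylglucosamine, had a rank after heat shock 20.9 points below the median of the others. Its ranks were 80.4 (UV), 46.1 (heat shock), 67.0 (HGF) and 27.3 (IFNg), so the lowest was after IFNg. After IFNg the largest gain, 23.6 points, was in AKT1, at ranks of 15.0 (UV), 14.3 (heat shock), 8.44 (HGF) and 37.9 (IFNg). Its scores were 3.69, 3.05, 2.66 and 3.01 in the same order. The gain was thus one of rank, as the score after IFNg was below those after UV and heat shock.

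Genes with the most short-exon sites were mostly long genes of high expression rank, and few of their sites were shared. DYNC1H1, the heavy chain of cytoplasmic dynein, had 11 sites in 11 exons of 76 to 256 nt, between exon 4 and exon 70. Of them UV listed 4, heat shock 3, HGF 2 and IFNg 6, and 7 of the 11 were listed in 1 treatment only. Its scores were all low, from 2.10 to 3.60, and none of the 11 was in all 4 treatments. DST, which encodes the cytoskeletal linker dystonin, had 8 sites, 5 of them after HGF. The actin crosslinker FLNA had 7, of which UV listed 5, heat shock 5, HGF 1 and IFNg 1, and 1, in the 98-nt exon 4, in all 4. The FLNA gene has close relatives, and reads could be split between them.

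Other genes with several sites were SPTAN1 (6 sites), HUWE1, PRKDC and LRP5 (5 each) and CPSF2 (4). SPTAN1 encodes a spectrin, HUWE1 a ubiquitin ligase, PRKDC the catalytic subunit of the DNA-dependent protein kinase and LRP5 a Wnt co-receptor. All 5 sites of HUWE1, all 5 of PRKDC and all 4 of CPSF2, a subunit of the complex that cleaves pre-mRNA 3′ ends, were listed in 1 treatment. LRP5 differed, as all 5 of its sites were listed after UV, 3 also after heat shock and none after IFNg. Over all symbols, 820 had 1 site, 142 had 2 and 50 had 3 or more.

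Sites of a single treatment were named where the gene model was at expression percentile 75 or more in every treatment. After UV the highest were ROBO1 exon 3 with a score of 5.83, CPSF2 exon 9 with 5.50 and DIAPH3 exon 1 with 5.44. ROBO1 is the receptor of SLIT ligands and DIAPH3 a formin. After heat shock they were RBM34 exon 8 (4.92), the translation initiation factor subunit EIF3J exon 2 (4.58) and MTO1 exon 1 (4.45), the last an enzyme of mitochondrial tRNA modification. After HGF they were the histone methyltransferase EZH2 exon 10 (4.13), NPLOC4 exon 10 (4.00) and the nucleolar protein NPM1 exon 6 (3.86), the last 2 in exons of 72 and 65 nt. NPM1 has processed pseudogenes, and its reads could be split. After IFNg they were the desmosomal cadherin DSG2 exon 7 (4.50), the HSP110 chaperone HSPH1 exon 14 (4.43) and MAK10 exon 8 (3.94), a subunit of an N-terminal acetyltransferase, in exons of 138, 126 and 44 nt. Of the 3 IFNg-alone windows shown above, that of HSPH1 held a core motif and those of DSG2 and MAK10 did not.

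Gene lists were read against the share of all coding symbols with a short-exon peak, which was 2.55% (UV), 1.59% (heat shock), 2.01% (HGF), 1.98% (IFNg) and 5.18% in any treatment. Among the 4312 symbols with a model at expression percentile 75 or more in every treatment, the share in any treatment was 17.7%. Chromatin regulators stood highest, with 23 of 59 genes (39.0%), and 22 of the 50 of them at that expression rank (44.0%). RNA processing proteins had 17 of 51 (33.3%), DNA damage response genes 10 of 40 (25%, and 8 of the 19 at that rank, 42.1%) and ubiquitin ligases 9 of 38 (23.7%). These genes were chosen by hand and many are long, and the part of gene length in the counts was not tested.

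Heat shock response genes had 7 of 38 (18.4%), and 7 of the 30 at that expression rank (23.3%). After heat shock, 1 of the 38 (2.63%) had a short-exon peak, against 1.59% of all coding symbols. It was HSP90AA1, with a score of 2.94 there and 2.69 after UV. Interferon gamma response genes had 7 of 55 (12.7%), and 3 of the 10 at that rank (30.0%). Of the 7 genes, 6 were listed after IFNg, or 10.9% of the list against 1.98% of all coding symbols. Among them were the transcription factor STAT2 (score 2.24), the GTPase GBP2 (2.09), TAPBP (3.11), PARP9 (2.33) and PARP14 (2.22). The median expression percentile of that list was 92.8 after IFNg and between 59.7 and 61.7 in the other treatments, so more of its genes were highly ranked there. Receptor tyrosine kinase and ERK signalling genes had 4 of 53 (7.55%), and 3 of the 16 at that rank (18.8%). After HGF, 1 of the 53 was listed (1.89%, against 2.01% of all coding symbols), and it was AKT1. The whole-list shares of these 3 lists were above the 5.18% of all coding symbols. At that expression rank their shares of 23.3%, 30.0% and 18.8% stood against 17.7%, so the last was near it. Lipid and sterol genes had 7 of 41 (17.1%), and 5 of the 15 at that rank (33.3%). Among the m6A writers, erasers and readers, 1 of 18 had a short-exon peak (5.56%, near the 5.18% of all coding symbols). At that rank it was 1 of 16 (6.25%, against 17.7%). The gene was the writer subunit VIRMA, in exon 7 (273 nt), at a score of 3.42 after IFNg alone. None of 43 secreted liver proteins had one, and the median expression percentile of that list was between 26.6 and 45.5.

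List members with a site in all 4 treatments were BPTF, LRP6, AKT1 and TAPBP. LRP6, a Wnt co-receptor like LRP5, had 2 such sites, in exon 2 (394 nt) and exon 6 (397 nt). The exon 2 site had scores of 5.34 (UV), 4.44 (heat shock), 5.07 (HGF) and 2.43 (IFNg), and the exon 6 site 4.60, 4.77, 4.21 and 3.08. In both, IFNg gave the lowest score, and both 61-nt windows hold a core motif. The kinase AKT1 had peaks at positions 1295, 1300, 1289 and 1288 with scores of 3.69, 3.05, 2.66 and 3.01. The deposited exon numbers put them on both sides of the junction of exon 10 and exon 11 (215 nt). In the transcript used here, exon 11 starts at position 1233, so positions in that transcript are shifted against the gene model. TAPBP, the tapasin that loads peptides on MHC class I, had 4.29, 3.504, 2.16 and 3.11 in exon 4 (399 nt), at expression percentiles of 86.1, 85.1, 94.4 and 98.4.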

How the data were processed

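RNA with poly(A) tails was broken to about 100 nt and pulled down with an antibody to m6A, per the labels' protocols, and the IP and input cDNA were sequenced. The authors deposited a table of 25918 gene models that lists, for each treatment, peaks with position, exon number, exon length, segment and score, and an expression quantile, a fraction from 0 to 1 written here as a percentile. How reads were aligned, peaks called or libraries pooled, and on which build, is not given in the sources used here; depth is unknown. Deposited gene coordinates are not printed, since their build is not GRCh38.

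The members, gene lists and rules were chosen with earlier results of these data known. Peak lists were parsed per treatment and joined at 100 nt. A joined site may hold peaks of other segments (53 peaks in 37 sites) or of 2 exons (31 sites). Sequences came from GENCODE 29 transcripts with the same symbol or RefSeq synonym, chromosome, strand, exon number and exon length, and several transcripts may fit. Named genes were the 10 with most sites, the 10 highest sites of all 4 treatments, per treatment the 3 sites with the strongest rise and the 3 with the strongest drop of score rank, the 3 highest sites of 1 treatment at expression percentile 75 or more, list members in all 4 treatments and peaks at the 400 nt bound. Some genes that these rules name are not reported here. Joining, sharing and motif search were tested on simulated data. Tables were made with pandas 2.3.3 and NumPy 2.4.6 under Python 3.11.15, intervals with SciPy 1.17.1 and plots with matplotlib 3.10.9.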

Additional observations from a re-analysis of the deposited data

How the results depend on the processing

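With 1 library per treatment and kind, no replicate could be left out, and no paired analysis was possible because no result comes from a test. Each of the 5 main values, pooled over treatments, was recomputed with 1 choice changed, and a value was counted as moved when it left the exact 95% interval of the main value. Of the 35 recomputed values, 12 had not moved, among them all 5 with 1 gene model per symbol. The share of coding peaks in short exons was 11.6%, and it was 5.88% among peaks at or above the median score, 18.8% at expression percentile 75 or more, 5.49% under 200 nt, 8.41% under 300 nt and 10.4% without IFNg. The share of sites in all 4 treatments was 3.17%, and it was 4.51% at or above the median score, 0.836% under 200 nt, 1.57% under 300 nt and 11.2% without IFNg, counted over the other 3. The median score percentile was 25.9, and it was 69.7 at or above the median score, 21.9 at expression percentile 75 or more, 20.6 under 200 nt and 21.6 under 300 nt. The median exon length was 210.0 nt, and it was 290.0 nt at or above the median score, 195 nt at expression percentile 75 or more and 237 nt without IFNg. The share of sites with a core motif was 47.7%, and it was 53.5% at or above the median score, 43.7% at expression percentile 75 or more, 38.8% under 200 nt, 43.9% under 300 nt, 26.5% within 25 nt, 64.5% within 100 nt and 55.7% without IFNg. A shorter exon bound lowers the share of coding peaks in such exons, a smaller window lowers the motif share and a score bound raises the median score percentile by construction. Counting over 3 treatments in place of 4 likewise raises the share of sites listed in all of them. The cause of the other shifts was not tested. IFNg had the lowest median exon length under 3 of 3 alternatives and the highest share of coding peaks in short exons under 4 of 5, the exception being peaks at or above the median score. The alternatives without IFNg, and one with transcripts whose genomic span is within 100 nt of the gene model's, were chosen after seeing the data. Depth is unknown, so a peak missing from a list cannot be read as absence of m6A.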

Other observations

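A few short-exon sites were listed in gene models of low expression rank. Of the 1293 sites, 12 lay in models below percentile 60 in every treatment, and 6 of these were listed in 2 or more treatments. These genes were chosen after their values were seen. TTN, the giant sarcomere protein, had a site in all 4 treatments in exon 303, with scores of 5.59 (UV), 5.71 (heat shock), 5.02 (HGF) and 3.55 (IFNg), at expression percentiles of 47.1, 45.4, 40.5 and 37.8. LRRC27 exon 6 (373 nt) had scores of 6.002, 4.74 and 5.22 after UV, heat shock and HGF and no peak after IFNg. Its expression percentiles were 45.5 (UV), 49.7 (heat shock), 42.7 (HGF) and 53.4 (IFNg). The UV value is the floor of that treatment, which 11798 gene models shared. AGAP2 exon 15 (149 nt) had 6.57 after UV and 5.27 after heat shock, and C9orf47 exon 2 (226 nt) 5.06 and 4.33. APC2 exon 13 (117 nt) had 5.79 after UV and 4.39 after HGF, and the ephrin receptor EPHA6 exon 5 (336 nt) 5.09 and 4.78, both at position 1482. The UV expression percentile was 49.3 for APC2, 51.8 for EPHA6, 55.0 for AGAP2 and 57.0 for C9orf47. All 6 had a peak after UV, and 1 of the 6 had one after IFNg. Over all 1293 short-exon sites, the largest classes listed in 2 or more treatments also held UV and lacked IFNg. They were UV and heat shock (163 sites), UV, heat shock and HGF (65) and UV and HGF (43). These counts are thus not particular to the 6.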
